A study of Homo sapiens with 20 samples.

Results

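The imprinted genes H19, IGF2, KCNQ1OT1, CDKN1C, MEG3, DLK1, PEG3, PEG10, GRB10 and SNRPN were examined for binding of the cohesin complex in cells of androgenetic and of biparental origin. These 10 genes were chosen by name out of the 62062 genes annotated on chromosomes 1 to 22 and X (hg38, GENCODE 44). Each gene was taken with 100 kb on either side, and windows that touched were merged, which gave 7 regions covering 2.39 Mb. Chromatin immunoprecipitation and sequencing (ChIP-seq) had been performed for RAD21, the kleisin subunit that closes the cohesin ring, and for SA1 and SA2, the alternative subunits that define its 2 forms. The study used hTERT CHM13, a line from a complete hydatidiform mole, with 3 replicate libraries for each subunit and for input chromatin, and hTERT RPE-1, a retinal pigment epithelial line, with 2 replicate libraries of each. Both lines carry telomerase, were untreated, and each stands for 1 line of its kind. The RAD21 antibody was not the same in the 2 lines, chromatin was sheared on different sonicators, and CHM13 chromatin carried a fly chromatin spike. The lines, antibodies, sonication, depth and number of replicates therefore cannot be told apart. No methylation, expression or parental-allele signal was measured here.

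In an imprinted domain, a control region that is DNA-methylated on the copy from 1 parent sets which copy of the neighbouring genes is transcribed. The control region upstream of H19 is methylated on the paternal copy, and its unmethylated copy is known to bind CTCF, a zinc-finger protein at which moving cohesin halts. A complete mole carries chromosomes of paternal origin alone, whereas RPE-1 has a copy from each parent. Cohesin at these loci is known for shaping the loops through which enhancers reach IGF2 or H19.

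The 6 peak lists, 1 for each subunit and line, hold positions only. Each was pooled by the authors over replicates, so there was no replicate spread or peak height to set beside a count, and no test between the lines was possible. By the study's library records, the CHM13 immunoprecipitations were sequenced more deeply than those of RPE-1, except for 1 shallow CHM13 RAD21 replicate. The authors kept loci seen in at least 2 replicates, which means 2 of 3 in CHM13 but both in RPE-1. The part of depth and of this rule in the longer CHM13 lists was not tested. Intervals below are 95% intervals that cover counting error only. Over chromosomes 1 to 22 and X, the lists held 73739 RAD21, 38153 SA1 and 44374 SA2 peaks in CHM13, and 14939, 10707 and 6389 in RPE-1.

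The repeats of the H19 control region are shown first because the only sites of the windows with RPE-1 peaks alone lie on them. The region was drawn around matches to GGNGGCAG, the core of its CTCF-binding repeats (both strands searched), at chr11:1997745-2005733 and 7.99 kb long. It ran upstream from the H19 start that 15 of 31 annotated transcripts use, and held 10 matches. Each line below gives 32 bases of hg38, read on the strand of the match, with the core in capitals. The first pair lay under RPE-1 RAD21 peaks, and the next 4, like the 4 not shown, lay under no peak of any list.
repeat 2.13 kb upstream of H19, under an RPE-1 RAD21 peak: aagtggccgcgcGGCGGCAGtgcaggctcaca
repeat 5.18 kb upstream, under an RPE-1 RAD21 peak: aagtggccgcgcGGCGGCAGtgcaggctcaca
repeat 2.53 kb upstream, under no peak: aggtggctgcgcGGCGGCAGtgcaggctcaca
repeat 2.94 kb upstream, under no peak: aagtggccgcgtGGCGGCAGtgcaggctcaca
repeat 4.37 kb upstream, under no peak: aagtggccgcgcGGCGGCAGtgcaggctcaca
repeat 4.77 kb upstream, under no peak: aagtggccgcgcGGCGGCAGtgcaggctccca
The 2 repeats under peaks were identical over these 32 bases, and the repeat 4.37 kb upstream matched them with 0 differences. The other 3 repeats shown differed from them by 1 or 2 bases. Over the 150 bases centred on the core, the 2 repeats under peaks differed at 46 positions, compared without gaps. Per the study's methods, reads were paired and 150 bp long, longer than the 32 bases compared here. The part that similarity between the repeats plays in which of them carry a peak was not tested.

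At the H19 control region, RPE-1 had 2 RAD21 peaks and CHM13 had none. H19 encodes a long noncoding RNA that is transcribed from the maternal copy. The proximal RPE-1 peak, chr11:1999768-2000094, was 327 bp wide, at the 11.3 percentile of RPE-1 RAD21 widths. The distal peak, chr11:2002691-2003146, was 456 bp wide, at the 54.7 percentile. Both lay in introns of long H19 transcripts, on the minus strand, and overlapped no annotated exon. Neither was overlapped by an SA1 or SA2 peak of RPE-1, the nearest of which were 31.2 and 192 kb from the region. In the CHM13 lists the nearest peaks were 28.3 kb (RAD21), 31.0 kb (SA1) and 31.1 kb (SA2) away. The 150 bases of hg38 around the repeat in each peak are given on the plus strand, where the core reads as its reverse complement, in capitals.
proximal RPE-1 peak, chr11:1999897-2000046: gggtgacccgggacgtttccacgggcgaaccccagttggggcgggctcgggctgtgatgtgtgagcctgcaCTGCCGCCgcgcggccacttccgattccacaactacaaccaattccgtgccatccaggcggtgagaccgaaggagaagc
distal RPE-1 peak, chr11:2002948-2003097: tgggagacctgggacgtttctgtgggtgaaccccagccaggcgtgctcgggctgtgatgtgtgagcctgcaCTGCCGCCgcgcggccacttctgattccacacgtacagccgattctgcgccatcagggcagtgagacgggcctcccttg
These stretches held 14 and 11 CpG dinucleotides. Where the region was drawn instead from the transcript tagged canonical in GENCODE 44, which starts 6.71 kb further upstream, it moved to chr11:2004726-2014701 and held no peak of any list, the nearest RPE-1 RAD21 peak being 1.58 kb away.

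**Figure D1:**
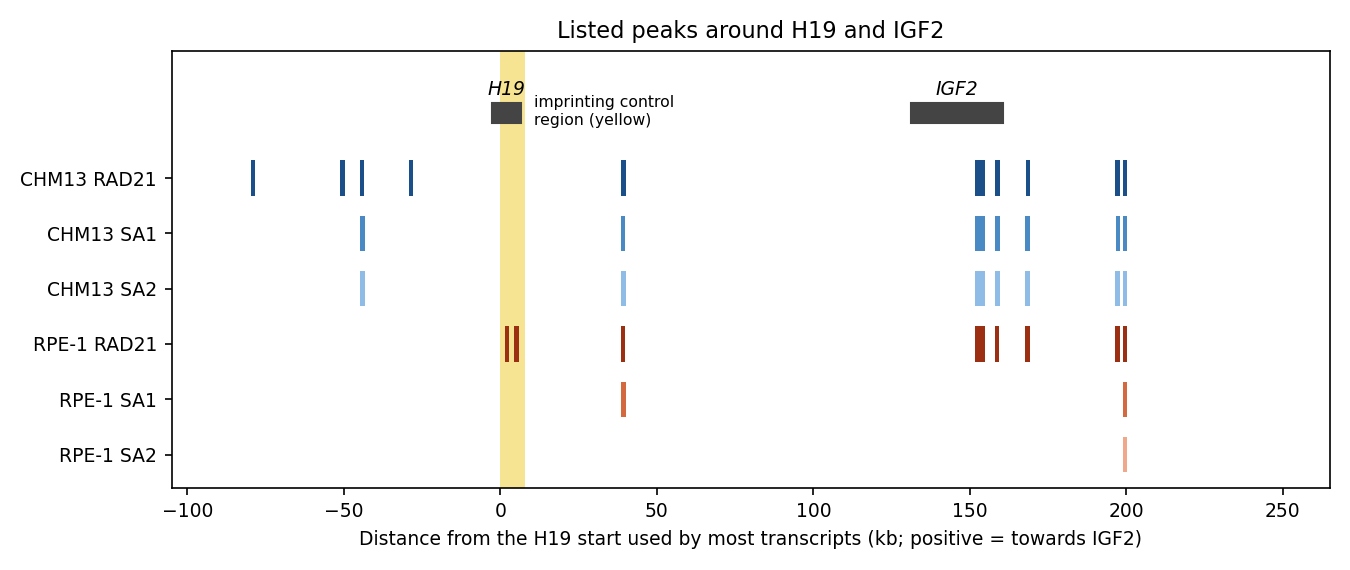
Listed peaks of the 6 lists in the merged H19 and IGF2 window, by distance in kb from the H19 start that most transcripts use, with the control region in yellow and gene extents in black; marks below the drawing minimum were widened to be visible. The RPE-1 RAD21 row alone has marks in the yellow band, and the marks around IGF2 line up between the CHM13 rows and RPE-1 RAD21.

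These were the only sites of the 7 regions with RPE-1 peaks alone. A site is here a run of overlapping peaks from any of the 6 lists, and its distance from a gene start is taken from its centre. Of 57 sites, 16 (28.1%) had peaks of both lines, 39 (68.4%) of CHM13 alone and 2 (3.51%, Wilson interval 0.968 to 11.9%) of RPE-1 alone. Across chromosomes 1 to 22 and X, 0.618% of 77076 sites had RPE-1 peaks alone. Of the 17 RPE-1 RAD21 peaks in the regions, 2 had no CHM13 RAD21 peak, against 2.89% of all RPE-1 RAD21 peaks. The lower bound for the 2 of 57 lies above the share of all sites, but both sites belong to 1 locus and are not independent. Among the windows of 38726 protein-coding and lncRNA genes, 1118 (2.89%) held at least 1 such RPE-1 RAD21 site and 103 (0.266%) held at least 2, as the H19 window did. In the windows of 48 further imprinted genes, 0 held an RPE-1 RAD21 peak without a CHM13 RAD21 peak. Of the RPE-1 RAD21 peaks that lack a CHM13 counterpart genome-wide, 65.5% had neither SA1 nor SA2 in RPE-1, compared with 38.5% of all RPE-1 RAD21 peaks and with 9 of the 17 (52.9%) in the regions.

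Around IGF2, by contrast, each RAD21 peak was listed in both lines. IGF2 encodes a fetal growth factor transcribed from the paternal copy. Its window held 7 RAD21 peaks in CHM13 and 7 in RPE-1, and all 7 overlapped, whereas 19.5% of all CHM13 RAD21 peaks were overlapped by one of RPE-1. The ratio of 1 (exact conditional interval 0.299 to 3.34) lay below the genome-wide ratio of 4.94, which its interval does not include. Of the 9 windows with a peak, this was the 1 whose RAD21 interval left out the genome-wide ratio. The 7 peaks are neighbours at 1 locus and not independent, so the interval understates the uncertainty. Most windows of the further imprinted genes were not fully shared, but that of PPP1R9A was, with 3 of 3. How often this occurs over all gene windows was not counted. All 7 sites also had SA1 and SA2 peaks in CHM13. In RPE-1, 2 had SA1 and 1 had SA2.

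Of these 7 sites, 3 lay inside the IGF2 gene, in no annotated exon, where the INS-IGF2 readthrough gene is also annotated. The site at chr11:2149944-2150711 had a CHM13 RAD21 peak of 768 bp and an RPE-1 peak of 408 bp. Over all RAD21 peaks, the median width was 724 bp in CHM13 and 443 bp in RPE-1. Wider CHM13 peaks, here and at the sites below, are thus also the order of the background. The site at chr11:2151201-2152457 held the widest CHM13 RAD21 peak of the window, 1214 bp, and an RPE-1 peak of 1169 bp, the widest of that list in the 7 regions. It also held a match to AGNGGGCGC, a CTCF core. The site at chr11:2156223-2157185 had peaks of 963 and 340 bp. RPE-1 SA1 and SA2 were listed at none of these 3 sites, so the IGF2 body carried RAD21 in both lines and SA1 and SA2 in CHM13 alone.

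The remaining sites of the IGF2 window flanked the gene. The site at chr11:2165960-2166820 overlapped an exon of TH, the tyrosine hydroxylase gene, with RAD21 peaks of 861 bp in CHM13 and 421 bp in RPE-1. The intergenic site at chr11:2194768-2195457 had RAD21 peaks of 690 and 555 bp. At chr11:2196981-2197820, 60.1 kb upstream of IGF2, all 6 lists had a peak, with RAD21 widths of 840 and 443 bp. Between H19 and IGF2, 39.3 kb upstream of H19, the site at chr11:2036715-2037528 had RAD21 peaks of 808 bp in CHM13 and 532 bp in RPE-1 and lacked RPE-1 SA2 alone. It was the widest CHM13 RAD21 peak of the H19 window and held 1 match to the H19 repeat core. On the other side of H19, 4 sites had CHM13 peaks alone, of which 3 overlapped MRPL23, a mitochondrial ribosomal protein gene.

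At the maternally methylated control regions, CHM13 RAD21 was listed in 3 of 5 and RPE-1 RAD21 in 1 of 5. Of all 38726 gene starts, 31.7% had a CHM13 RAD21 peak within 2 kb and 7.20% an RPE-1 RAD21 peak, so more regions with CHM13 peaks is also the order of the background. At the 3 paternally methylated regions, the H19 region, the intergenic region between DLK1 and MEG3 (IG-DMR) and the MEG3 promoter region (MEG3-DMR), CHM13 had a peak of any subunit in 0. RPE-1 RAD21 was in 1 of these 3 with the start most transcripts use, and in 0 of 3 with the canonical start. SA1 and SA2 of CHM13 were each in 2 of the 5 maternally methylated regions, and SA1 and SA2 of RPE-1 in 0 of 8 regions. The shares of all gene starts with these subunits within 2 kb were 17.1% and 15.9% in CHM13, and 3.03% and 2.24% in RPE-1. The methylated copy is background knowledge of each region, and its state in these 2 lines was not measured. With 8 regions these are counts, no test was made, and no difference by methylated copy is read from them.

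**Figure D2:**
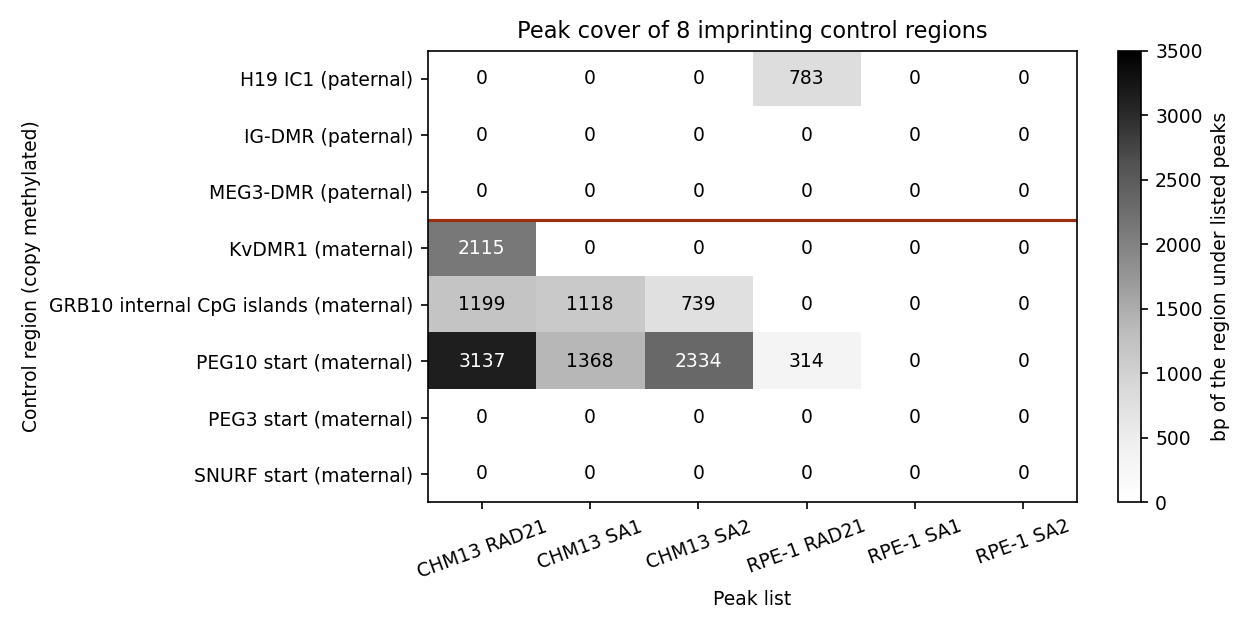
Base pairs of each of 8 control regions (rows, with the parental copy known to be methylated) that lie under listed peaks of each list (columns). RPE-1 RAD21 covers 783 bp of the H19 region where all CHM13 lists show 0, and CHM13 RAD21 covers 2115 bp at KvDMR1, 1199 bp at GRB10 and 3137 bp at PEG10.

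KvDMR1, the control region at the start of KCNQ1OT1, carried RAD21 in CHM13 alone. KCNQ1OT1 is a paternally transcribed antisense RNA inside the potassium channel gene KCNQ1. The peak chr11:2699560-2700900 spanned its start and was 1341 bp wide, at the 90.2 percentile of CHM13 RAD21 widths. A second peak, chr11:2698639-2699412, followed within the transcript and was 774 bp wide. Neither had an SA1 or SA2 peak, and the nearest peak of every other list lay 165 kb away. The wider site held 138 CpG dinucleotides, with an observed to expected CpG ratio of 0.798. In its central 300 bp the ratio was 0.709, against a median of 0.216 in the central 300 bp of all CHM13 RAD21 peaks.

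The GRB10 region carried all 3 subunits in CHM13 and none in RPE-1. GRB10 encodes an adaptor that binds insulin and growth factor receptors and is imprinted in a tissue-dependent way. The control region was drawn as 3 CpG islands inside the gene at chr7:50781446-50783586, a stretch that holds the canonical GRB10 start at 50782896. There the CHM13 peaks were 1199 bp (RAD21), 1118 bp (SA1) and 739 bp (SA2) wide, and the site overlapped a GRB10 exon. The site held 133 CpG dinucleotides, with an observed to expected ratio of 0.902. The nearest RPE-1 RAD21 peak was 284 kb away. The middle 150 bases of the site, shown for this composition (plus strand, CG in capitals), held 21 CpG dinucleotides.
GRB10 internal islands, chr7:50782567-50782716: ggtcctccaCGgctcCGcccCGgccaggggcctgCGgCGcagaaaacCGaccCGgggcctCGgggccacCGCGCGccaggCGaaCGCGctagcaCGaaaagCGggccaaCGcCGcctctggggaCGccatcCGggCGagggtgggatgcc

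PEG10 was the one control region listed in both lines. PEG10 derives from a retrotransposon gag-pol gene, acts in placental growth, and shares its divergent promoter with SGCE, which encodes epsilon-sarcoglycan. The CHM13 peaks there were 3137 bp (RAD21, 99.3 percentile of widths), 1368 bp (SA1) and 2334 bp (SA2) wide. The single RPE-1 peak, RAD21 at chr7:94656018-94656331, was 314 bp wide, at the 8.45 percentile of its list. It was 0.046 kb from the PEG10 start, and the nearest RPE-1 SA1 and SA2 peaks were 205 and 259 kb from the region.

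**Figure D3:**
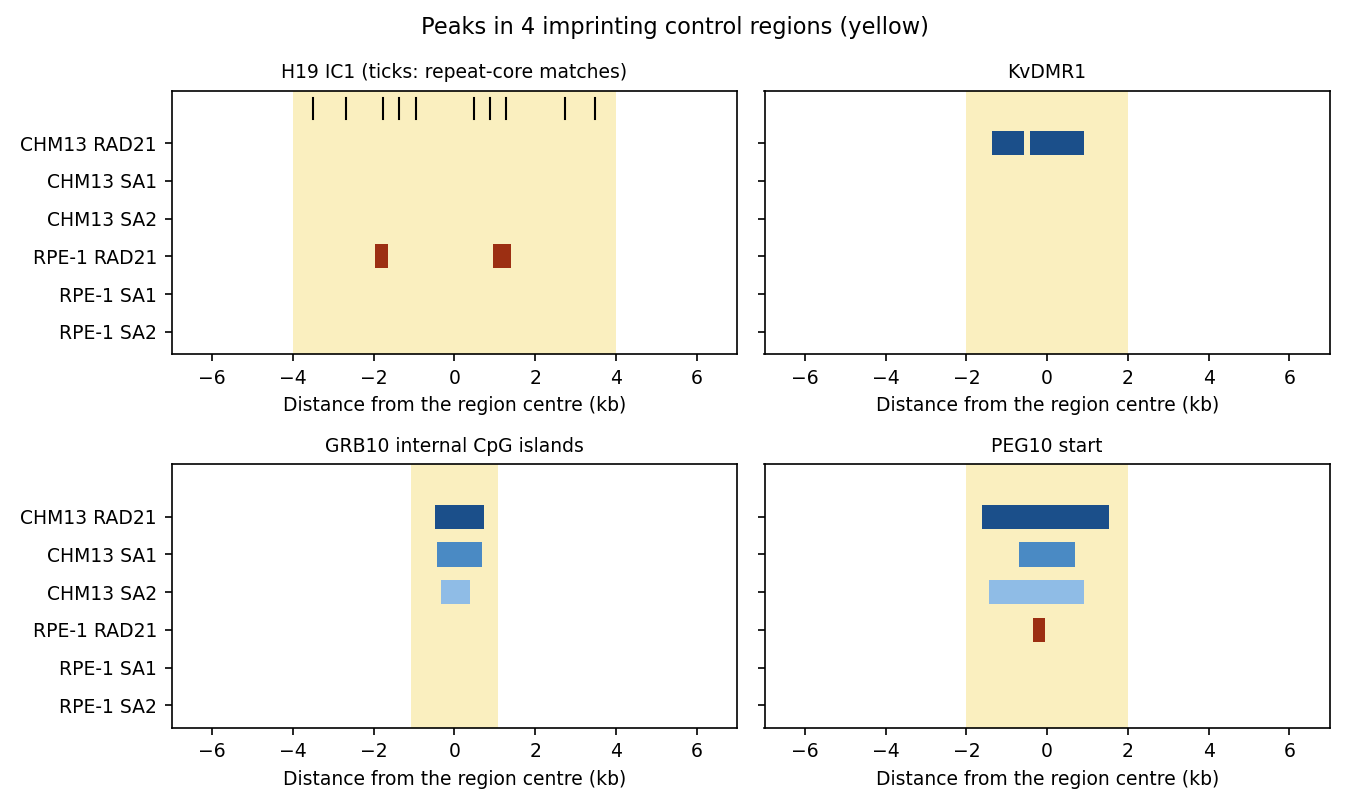
Peaks of the 6 lists (rows) within 7 kb of the centre of 4 control regions (yellow), by distance in kb; ticks over the H19 panel mark the 10 matches to the repeat core. Peaks in the H19 panel are in the RPE-1 RAD21 row alone, while CHM13 RAD21 fills parts of the other 3 panels and RPE-1 RAD21 returns at PEG10 with 314 bp.

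No peak of any list was found in the other 4 control regions. For the IG-DMR and the MEG3-DMR, drawn from the MEG3 start that 27 of 50 transcripts use, the nearest CHM13 RAD21 peaks were 26.6 and 14.6 kb away, and the nearest RPE-1 RAD21 peaks were 142 and 160 kb away. The canonical MEG3 transcript starts 46.7 kb further upstream, and the regions drawn from it likewise held no peak. At the PEG3 start the nearest CHM13 RAD21 peak was 149 kb away. At the start of SNURF, the reading frame upstream of SNRPN that marks the Prader-Willi control region, it was 106 kb away. The plot of base pairs under peaks shows these 4 rows at 0 in all columns.

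Farther out in the KCNQ1OT1 and CDKN1C windows, sites shared by both lines flanked the CHM13-only peaks at KvDMR1. CDKN1C encodes a cyclin-dependent kinase inhibitor (p57) that restrains growth and is transcribed from the maternal copy. The peak nearest its start, at chr11:2888114-2888988 and 2.78 kb upstream, was in all 6 lists, with RAD21 widths of 875 bp in CHM13 and 509 bp in RPE-1. It overlapped an exon of SLC22A18AS and held 1 CTCF core match. The next site, chr11:2891436-2893146, was also in all 6 lists, with RAD21 widths of 1711 and 550 bp. At chr11:2927863-2931202, over PHLDA2, an imprinted inhibitor of placental growth, CHM13 RAD21 spanned 3340 bp, the widest peak in any of the 7 regions and at the 99.4 percentile of its list. RPE-1 RAD21 there was 525 bp wide, and RPE-1 SA1 and SA2 were not listed.

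Within KCNQ1, on the side of the KCNQ1OT1 window far from its start, 2 sites lay in introns. The site chr11:2532524-2533440 was in all 6 lists, with RAD21 widths of 917 and 646 bp, and held 2 CTCF core matches. The site chr11:2531160-2531939 lacked RPE-1 SA1 alone, with RAD21 widths of 780 and 535 bp. In all, 5 of the 10 CHM13 RAD21 peaks across these windows were overlapped by RPE-1 RAD21, against 7 of 11 across H19 and IGF2.

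Along DLK1 and MEG3, the share of CHM13 RAD21 peaks found in RPE-1 was near that of the genome. DLK1 encodes a transmembrane ligand of the Notch type that restrains adipocyte differentiation and is transcribed from the paternal copy, and MEG3 is a maternally transcribed long noncoding RNA. Of 13 CHM13 RAD21 peaks across the pair, 2 were overlapped by RPE-1 RAD21, and 11 were not, against 80.5% not overlapped genome-wide. Both lay far upstream of DLK1. The site chr14:100645518-100646321, 81 kb upstream, had RAD21 peaks of 804 bp in CHM13 and 420 bp in RPE-1, with RPE-1 SA1 of 375 bp. The site chr14:100663066-100663890, 63.4 kb upstream over LINC00523, had RAD21 peaks of 823 and 455 bp, with RPE-1 SA2 of 316 bp.

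The MEG3 window held 8 RAD21 peaks in CHM13 and none in RPE-1. A window without an RPE-1 RAD21 peak is common in the background, at 23.2% of all gene windows. For 8 against 0 the lower bound of the ratio was 1.71, so these counts do not set the window apart from the genome-wide ratio of 4.94. The peak nearest to the MEG3 start, 16.6 kb away within the gene, was 619 bp wide and RAD21 alone. The widest, 862 bp, lay over RTL1 and MEG8, imprinted neighbours downstream, with SA1 of 715 bp and SA2 of 529 bp. Of the 8, 3 had both SA1 and SA2. The peak nearest to the DLK1 start was 33.4 kb away and 515 bp wide, so no list had a peak at either promoter.

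GRB10 had the most RAD21 peaks in CHM13 of the 10 windows, 14, and none in RPE-1. Of the 14, 8 lay inside the gene. The lower bound of the ratio was 3.32, so 14 against 0 is again not apart from the genome-wide 4.94. The widest, chr7:50791732-50793823, was 2092 bp of RAD21 alone at the 5′ end of the gene, at the 97.3 percentile, and held 207 CpG dinucleotides. At chr7:50679028-50679914, in an intron, RPE-1 SA2 was listed at 239 bp without RPE-1 RAD21 or SA1, whereas CHM13 had RAD21 of 873 bp, SA1 of 744 bp and SA2 of 806 bp. This was 1 of the 7 RPE-1 SA2 peaks in the regions, and the other 6 overlapped RPE-1 RAD21. Genome-wide 12% of RPE-1 SA2 peaks had no RPE-1 RAD21.

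In the PEG10 window, 1 of 5 CHM13 RAD21 peaks was shared, the one at its start, with 19.5% shared genome-wide. SNRPN, which encodes a spliceosome protein and is transcribed from the paternal copy, had 2 CHM13 RAD21 peaks in its window, of 410 and 486 bp. The wider, chr15:24846977-24847462, lay in the gene 108 kb upstream of the start used here, at the 14.7 percentile of widths, and no RPE-1 peak of any list lay in the window. PEG3, a paternally transcribed zinc-finger gene, had no peak of any list in its window. The surrounding stretch without CHM13 RAD21 peaks ran from chr19:56689588 to 57099107, 410 kb, and held 0 peaks of the other lists. Whether reads were placed in this stretch was not analysed here, so its lack of listed peaks cannot be told apart from a lack of usable reads. Of all gene windows, 6.2% held no CHM13 RAD21 peak. RPE-1 RAD21 was absent from 4 member windows (MEG3, GRB10, SNRPN and PEG3) and from 23.2% of all gene windows. RPE-1 SA1 was absent from 5 member windows and 33% of all gene windows. RPE-1 SA2 was absent from 5 member windows and 47.3% of all gene windows. No test was made of these counts.

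**Figure D4:**
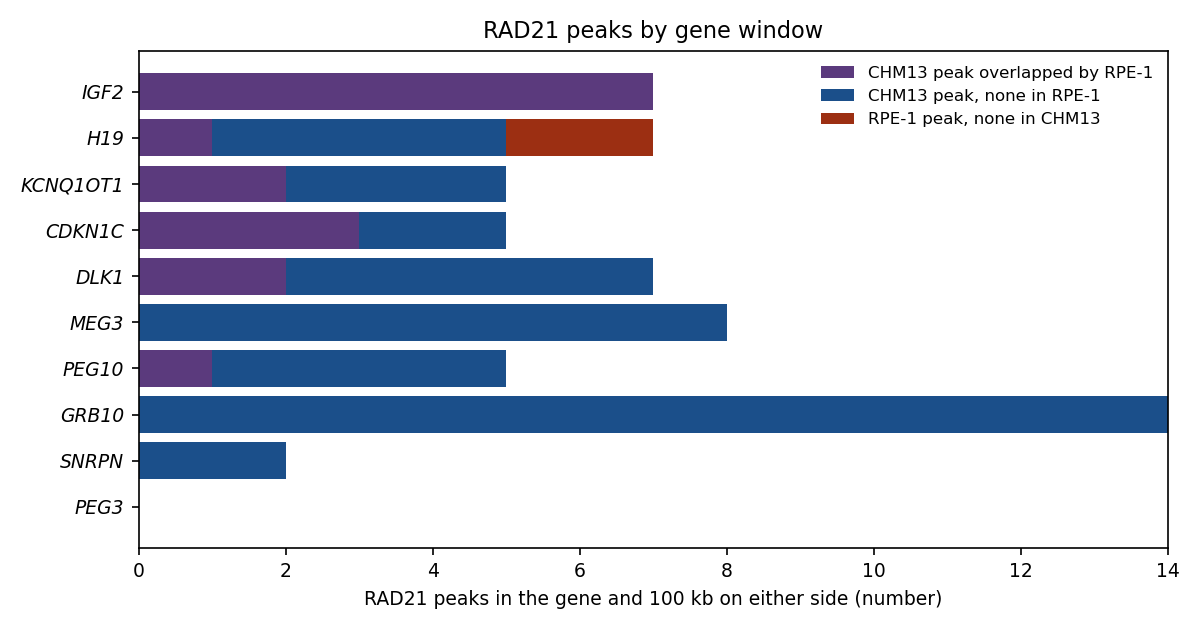
Number of RAD21 peaks in each gene window (gene and 100 kb on either side), split into CHM13 peaks overlapped by RPE-1, CHM13 peaks with none in RPE-1, and RPE-1 peaks with none in CHM13; neighbouring windows share some peaks. IGF2 is shared throughout (7 of 7), H19 alone has RPE-1-only peaks (2), and GRB10 (14) and MEG3 (8) are CHM13-only.

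The CHM13 RAD21 peaks also differed in width between windows. In the H19 window they ran from 320 to 808 bp, with a median of 507 bp, and in the IGF2 window from 690 to 1214 bp, with a median of 840 bp. The KCNQ1OT1 window gave 582 to 1341 bp (median 780 bp) and the CDKN1C window 500 to 3340 bp (median 875 bp). In the MEG3 window the range was 469 to 862 bp (median 540 bp), and in the DLK1 window 473 to 823 bp (median 697 bp). Peaks of the GRB10 window ran from 378 to 2092 bp (median 628 bp), and those of the PEG10 window from 616 to 3137 bp (median 1157 bp). The peaks of the IGF2, CDKN1C and PEG10 windows had medians above the 724 bp of all CHM13 RAD21 peaks, as did those of the KCNQ1OT1 window, and the other medians were below it.

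As a set, the 7 regions had about the peak density of chromosomes 1 to 22 and X taken whole. CHM13 RAD21 had 55 peaks, or 23 per Mb (Poisson interval 17.3 to 30.0), against 24.3 over chromosomes 1 to 22 and X. CHM13 SA1 had 28 peaks and 11.7 per Mb (7.79 to 16.9), against 12.6. CHM13 SA2 had 26 peaks and 10.9 per Mb (7.11 to 15.9), against 14.6. The genome-wide value lay within the interval for all 3 lists.

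In RPE-1 the same held. RAD21 had 17 peaks and 7.11 per Mb (4.14 to 11.4), against 4.93. SA1 had 6 peaks and 2.51 per Mb (0.921 to 5.47), against 3.53. SA2 had 7 peaks and 2.93 per Mb (1.18 to 6.04), against 2.11. The RAD21 lists held 3.24 times as many peaks in CHM13 as in RPE-1 (1.85 to 5.95), with 4.94 genome-wide. For SA1 this ratio was 4.67 (1.90 to 13.8), with 3.56 genome-wide. The SA2 ratio was 3.71 (1.57 to 10.1), with 6.95 genome-wide. Each genome-wide ratio lay within the interval of the regions. Beside windows drawn alike around 38726 protein-coding and lncRNA genes, the member medians were lower in every list. For RAD21 they were 5 against 7 peaks in CHM13 and 1.5 against 2 in RPE-1. The quartiles of all gene windows were 4 and 11 in CHM13, and 1 and 3 in RPE-1. By window, CHM13 RAD21 ran from 0 per Mb (PEG3) and 5.63 (SNRPN) to 34.7 (GRB10).

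**Figure D5:**
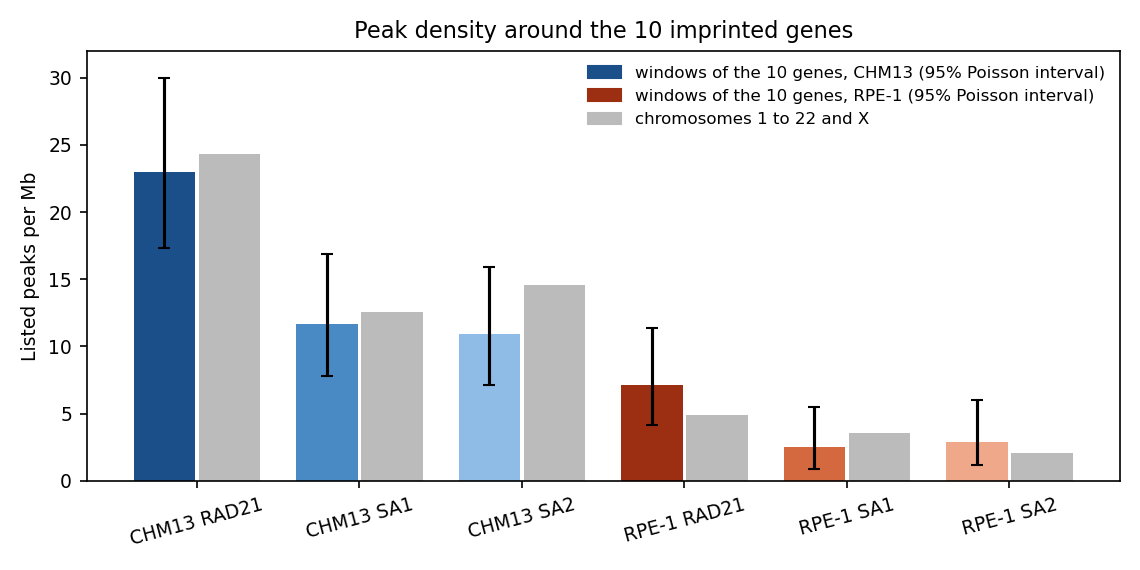
Listed peaks per Mb in the 7 merged windows of the 10 genes (coloured, with 95% Poisson intervals) and over chromosomes 1 to 22 and X (grey) for each list. Every grey bar lies within the interval of its coloured neighbour.

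For sharing and subunit composition, 3 of 4 shares had intervals that held the genome-wide value. The exception was RPE-1 RAD21, of which 15 of 17 peaks overlapped CHM13 RAD21 (88.2%, 65.7 to 96.7%), against 97.1%, the 2 others being the neighbours at H19. Of the 55 CHM13 RAD21 peaks, 15 were overlapped by RPE-1 RAD21 (27.3%, 17.3 to 40.2%), against 19.5%. Both SA1 and SA2 of CHM13 were present at 23 of 55 (41.8%, 29.7 to 55.0%), against 43.1%. In RPE-1, 4 of 17 RAD21 peaks had both (23.5%, 9.56 to 47.3%), against 32.4%. The 15 shared CHM13 peaks had a median width of 861 bp and the 40 unshared a median of 620 bp, in the same order as the genome-wide medians of 808 and 685 bp. In the central 300 bp, the H19 repeat core occurred in 15 of 55 CHM13 RAD21 peaks (27.3%) and in 7 of 17 RPE-1 RAD21 peaks (41.2%), higher than the 13.5% and 22.7% of all peaks of these lists, with no test made. The 7 include the 2 RPE-1 peaks of the H19 control region, which was itself drawn around matches to this core. The CTCF core occurred in 5 of 55 and 4 of 17, against 3.71% and 9.97%. The ZFP57 hexamer TGCCGC occurred in 5 of 55 and 4 of 17, against 6.39% and 9.47%. This hexamer lies within CTGCCGCC, the reverse complement of the repeat core GGCGGCAG, so the 2 motifs are not separate. The 4 again include the 2 RPE-1 peaks of the H19 control region. The YY1 core GCCATNTT occurred in 0 of 55 and 0 of 17, against 5.18% and 5.4%, counts too small to give a direction. Over their full width, some sites of the GRB10 and PEG10 windows held a match to it. The repeat core, CTCF core and ZFP57 hexamer are rich in G and C. In the central 300 bp, the median GC content of all CHM13 RAD21 peaks was 43.7%. It ranged from 27% to 79.3% across the sites of the windows, most of them above that median. The part of base composition in these shares was not tested. A match describes the letters and is no measure of binding by CTCF, ZFP57 or YY1.

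At the gene starts themselves the members were near the background. Within 1 kb of the canonical start, CHM13 RAD21 was listed at 3 of 10 members (KCNQ1OT1, PEG10 and GRB10), against 27.5% of 38726 genes. CHM13 SA1 and SA2 were each at 2 (PEG10 and GRB10), against 14.0% and 12.5%. These CHM13 peaks are among those given above for the KvDMR1, GRB10 and PEG10 control regions and are no separate result. RPE-1 RAD21 was at 1 (PEG10), against 5.25%. RPE-1 SA1 and SA2 were at 0, against 1.96% and 1.51%. Of 48 further imprinted genes, 17 had CHM13 RAD21 at their start, 7 had SA1 and 6 had SA2, and the RPE-1 lists gave 5, 1 and 0. Not all of these starts are separate. PLAGL1 and HYMAI start under the same 878 bp CHM13 RAD21 peak, and SGCE was counted from the peaks at the PEG10 start. The 5 with RPE-1 RAD21 were TSSC4, SGCE, UBE3A, MEST and ERLIN2, and each of them also had CHM13 RAD21. The remaining 12 starts with CHM13 RAD21 had no RPE-1 peak within 1 kb. They were PHLDA2, RTL1, ZNF264, MAGEL2, COPG2, PLAGL1, HYMAI, DIRAS3, IGF2R, NAP1L5, INPP5F and ZDBF2. At PHLDA2 the nearest RPE-1 RAD21 peak was 1.2 kb away. Over all 38726 starts, 10651 had CHM13 RAD21 and 2034 had RPE-1 RAD21. Most starts with CHM13 RAD21 thus lacked RPE-1 RAD21 in the background too.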

How the data were processed

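CHM13 and RPE-1 ChIP-seq reads were, per the study's methods, aligned with bwa mem, filtered with SAMtools, called with macs and merged over replicates with GenomicRanges, and loci not seen in at least 2 replicates were discarded. The methods describe this for the CHM13 genome. The labels name hg38 for the lists used here, and how the hg38 lists were made beyond this is not given in the sources used here. The values deposited by the authors in these 6 lists are peak starts and ends, and their other columns are constant, so the lists give no peak strength or read depth. The study records reads for each library, with most CHM13 libraries deeper than those of RPE-1, and these totals were not used here. A further 6 lists on the CHM13 assembly were not used. Peaks were counted in a window by their centre, and called shared at an overlap of 1 bp. Genes, exons and starts came from GENCODE 44 on hg38. Control regions were drawn from annotation and sequence: 2 kb on either side of the KCNQ1OT1, MEG3, PEG10, PEG3 and SNURF starts, 10 to 20 kb upstream of MEG3 for the IG-DMR, CpG islands for GRB10 and repeat matches within 10 kb of H19 with 500 bp added. The design set canonical starts, and starts of most transcripts were the alternative shown beside them. Sites named were every RPE-1 peak in the windows, every peak in a control region, the widest CHM13 RAD21 peak of each window and the peak nearest to each start. The members and lists were chosen with earlier results of these data known. Poisson, Wilson and exact conditional intervals were computed with scipy 1.17.1, beside pandas 2.3.3 and pysam 0.24.0. The Poisson and exact conditional intervals were tested on simulated counts, and the Wilson interval was not. All 48 further imprinted genes matched by symbol.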

Additional observations from a re-analysis of the deposited data

How the results depend on the processing

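Of 103 values recomputed under other settings, 92 stayed within the margin set for them and 11 did not. CHM13 RAD21 density was 27.2 per Mb with 50 kb windows and 20.6 with 200 kb windows. These lie on either side of the genome-wide 24.3. Requiring both other subunits lowered RAD21 density to 9.63 per Mb in CHM13 and 1.67 in RPE-1, and left 0 control regions with an RPE-1 RAD21 peak under either choice of gene start, since the peaks at H19 and PEG10 are RAD21 alone in RPE-1. With starts of most transcripts, 2 of the 8 control regions held RPE-1 RAD21 in place of 1, with or without 1 kb added on either side, and CHM13 SA1 and SA2 were each at 1 member start in place of 2. Overlap of 50% of both peaks lowered the share of RPE-1 RAD21 peaks found in CHM13 from 88.2% to 58.8%. RPE-1 RAD21 was at 2 member starts within 2.5 kb and at 3 when any annotated start counted. The alternatives that combine starts of most transcripts with another choice, and those starts for the members, were chosen after seeing the data. No paired analysis was possible because each list pools its replicates, and no replicate could be left out for the same reason. A peak missing from a list may be below the calling threshold, which these lists do not let a count resolve.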
